A study of Mus musculus with 123 samples.

Results

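Leukemia inhibitory factor (LIF) signals through a receptor of a pair of chains, the LIF-binding chain Lifr and the shared chain gp130, which is encoded by Il6st. The 9 genes described here are the ligand Lif, the receptor chains Lifr, Il6st and Il6ra, the kinases Jak1 and Jak2, the transcription factor Stat3, and the STAT3-responsive genes Socs3 and Pim1. They were chosen by gene symbol, and all 9 were among the 29022 genes of the count table. Ligand binding brings the chains together, the Janus kinases bound to them phosphorylate STAT3, and STAT3 dimers enter the nucleus and bind the sequence TTCNNNGAA. SOCS3 is induced by STAT3 and in turn blocks the kinases on gp130. The pathway is best known for sustaining the self-renewal of mouse embryonic stem cells, and gp130 is needed for the epiblast to persist through diapause.

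Transcripts were counted as unique molecular identifiers (UMIs) in individual mouse morulae and in inner cell masses (ICMs) taken from individual blastocysts, 48 Ctrl, 48 KO and 27 MWT. Ctrl embryos had a flox/flox; Zp3-Cre mother, in which Cre acts in the growing oocyte, and therefore lacked the maternal Oct4 (Pou5f1) or Sox2 product but carried an intact paternal allele. KO embryos of the same mothers had inherited a paternal Pou5f1 mKO2 or Sox2 EGFP allele and were null from both parents, and MWT embryos kept the mother's gene intact. The morulae, at E2.75, were used whole and saw no inhibitor, whereas the Ctrl and KO ICMs, early at E3.75 and late at E4.5, and the Sox2 MWT early ICMs came from embryos cultured from E2.5 with 1 µM of the MEK inhibitor PD0325901 and freed of trophectoderm by immunosurgery, so that stage, culture and isolation changed together. All mothers were superovulated, the strain label was B6C3F1, and for the 13 Oct4 MWT ICMs the title and the source name gave different stages, of which the title was used. For the 8 late ones among them the labels named 1 µM of the inhibitor. For the 5 early ones the labels named no inhibitor, so that their culture is known only from the study's general methods. For neither Oct4 MWT ICM group was a day taken. Each Ctrl and KO group held 8 embryos, and the MWT groups held 7 Oct4 morulae, 5 Oct4 early ICMs, 8 Oct4 late ICMs and 7 Sox2 early ICMs.

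Total UMIs per embryo ran from 525755 to 1344035, and levels are given as CPM, the UMIs of a gene scaled to a common total, so that a CPM of 1 is about 1 UMI. In the ICMs of its own line each targeted gene followed the labels. Pou5f1 reached at most 4.73 CPM in a KO ICM of the Oct4 line against at least 23.4 CPM in a Ctrl ICM, and Sox2 reached at most 36.4 CPM in a KO ICM of the Sox2 line against at least 72.6 CPM in a Ctrl ICM. Sox2 was also lower in Oct4 KO late ICMs, 96.1 ± 69.8 CPM against 314 ± 99.4 CPM in Ctrl (SD, n = 8 each), a log2 fold change of -1.62 ± 0.27 (edgeR adjusted p = 1.03e-06), so the late ICMs of that line had lost Oct4 and had less Sox2. Sox2 was not called in Oct4 KO early ICMs, nor Pou5f1 in Sox2 KO ICMs. In Sox2 morulae Sox2 was called lower in KO (-2.97 ± 0.55, adjusted p = 0.00549), at 11.8% of the Ctrl level and with all 8 KO embryos below the Ctrl median, although the ranges overlapped, with up to 3.32 CPM in KO and from 2.91 CPM in Ctrl. By their whole profile 7 embryos, all of them Sox2 morulae, lay nearer to the group of the other genotype class, and 4 ICMs lay nearest to a group of another stage. Because each library is a whole embryo or ICM, fewer cells of a type and less RNA per cell cannot be told apart. Marker genes of other cell types moved with genotype. The summed level of 14 trophectoderm markers was 453 to 1437 CPM in Oct4 Ctrl and 946 to 1551 CPM in Oct4 KO early ICMs, and 299 to 1165 CPM against 1578 to 3264 CPM in late ICMs. In the Sox2 line it was 196 to 677 CPM against 549 to 2129 CPM in early ICMs and 275 to 2949 CPM against 675 to 1882 CPM in late ICMs. By single gene, 3, 9, 4 and 3 of the 14 were called higher and 1, 0, 1 and 1 lower in these 4 comparisons. Of these markers Dlx3 stayed at 3 UMIs or fewer in all 8 groups and Ascl2 in 5 of them. The sum of 10 epiblast markers, Pou5f1 and Sox2 included, was lower in every KO than in every Ctrl ICM of its line and stage, down to 501 to 1229 CPM in Oct4 KO late ICMs against 2786 to 4190 CPM in the Ctrl. The 12 primitive endoderm markers summed to 312 to 1541 CPM in Oct4 Ctrl and 911 to 1616 CPM in Oct4 KO late ICMs, and their ranges overlapped in the other 3 ICM comparisons too. Single markers did not all follow that sum: 5 of the 10 tested were called lower in Oct4 KO late ICMs (Gata4, Hnf4a, Lama1, Pdgfra and Sox17) and 2 higher (Dab2 and Gata6), with a median log2 fold change of -1.41. The part of such changes in the results below was not tested.

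**Figure D1:**
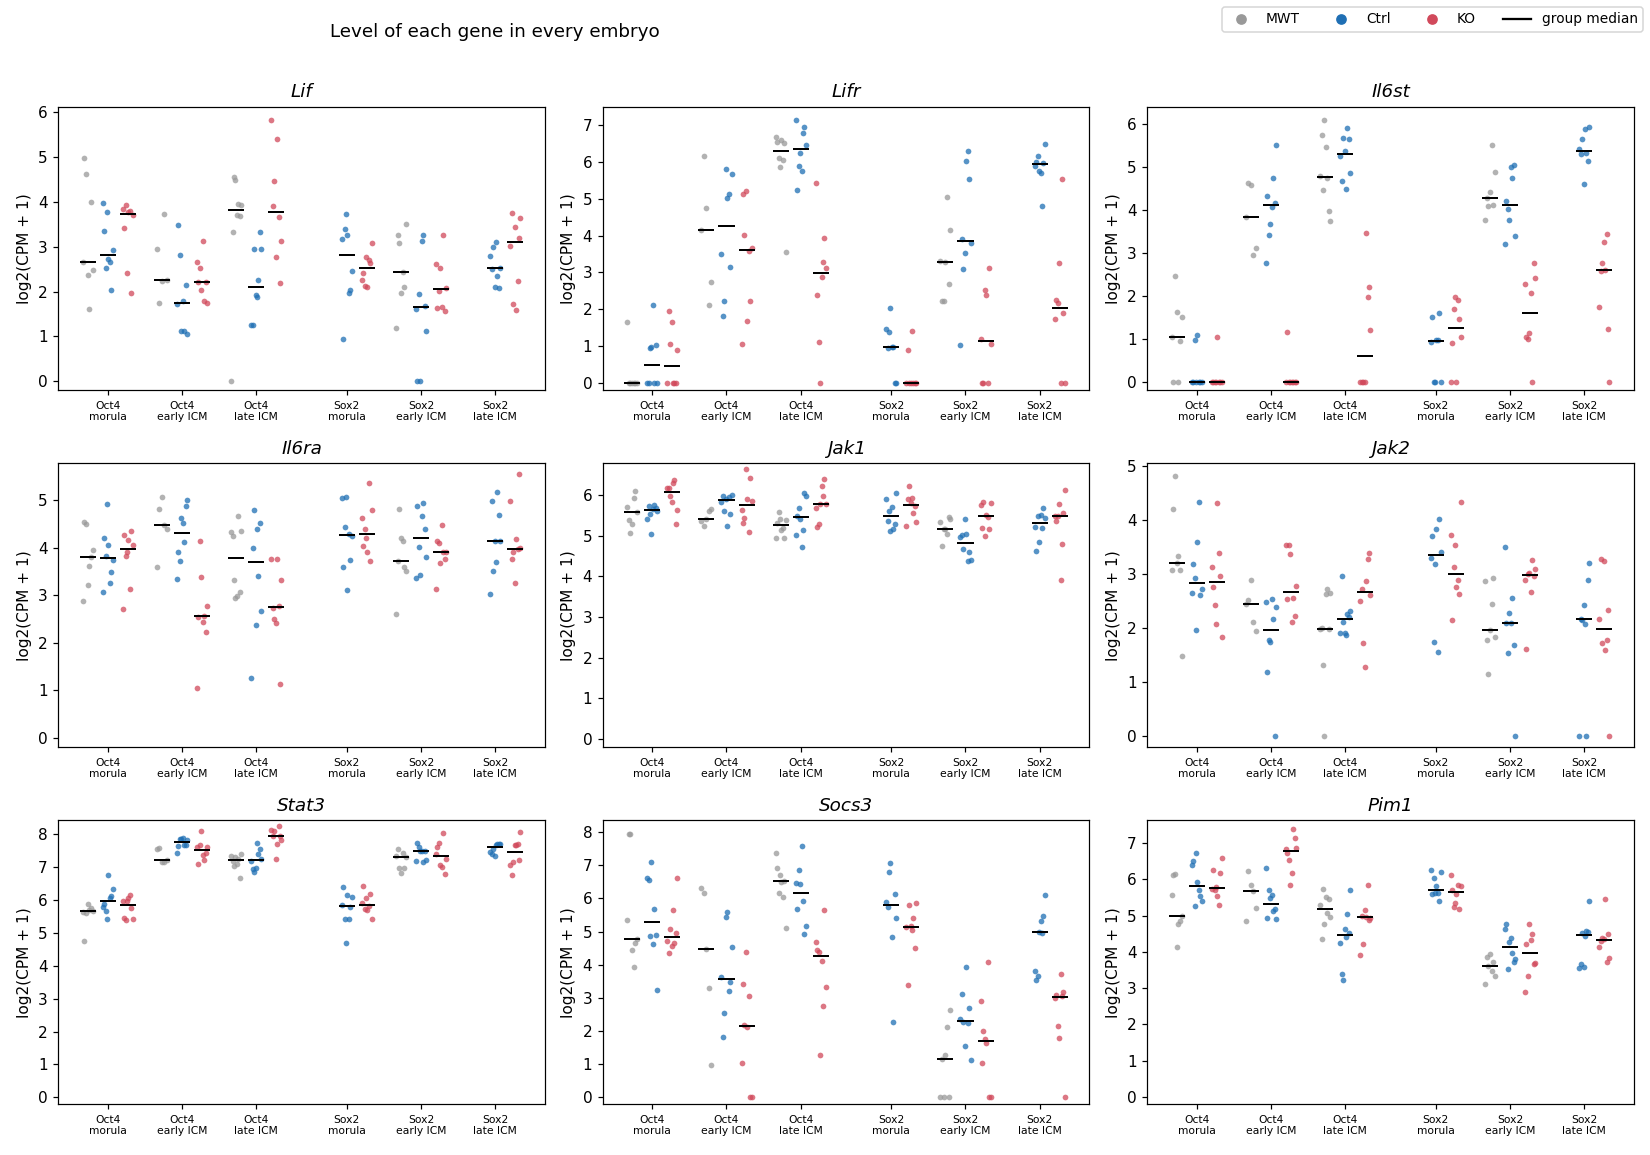
Level of each of the 9 genes in every embryo as log2(CPM + 1), by line, stage and genotype (grey MWT, blue Ctrl, red KO), with the group median as a black line and 5 to 8 embryos a group. Il6st and Lifr reached at most 4.52 and 3.36 CPM in a morula and were higher in most Ctrl and MWT ICMs, and Il6st reached at most 10.1 CPM in a KO ICM, while the Jak1 and Stat3 ranges of Ctrl and KO overlapped in every comparison.

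Both receptor chains were low in morulae and higher in the ICM, although the Lifr ranges of Ctrl morulae and early ICMs overlapped in both lines. In Ctrl embryos Il6st, the signal-transducing chain gp130, went from 2 UMIs over 8 Oct4 morulae to 130 UMIs over 8 early ICMs, a ratio of 75.1 between the summed UMIs, each scaled to the group's total, (95% exact Poisson interval 20.4 to 627, counting error only). In the Sox2 line it went from 7 to 139 UMIs, a ratio of 23.6 (11.2 to 59.9). Lifr, the LIF-binding chain, went from 6 to 170 UMIs in the Oct4 line and from 10 to 207 UMIs in the Sox2 line. A gene was called where the adjusted p of edgeR's quasi-likelihood test over all genes was under 0.05 and the fold at least 2 in either direction, that is 1 on the log2 scale. On this rule 6 of the 9 genes were called between Oct4 Ctrl morulae and early ICMs, against 29% of all 14053 genes tested, and 7 of 9 in the Sox2 line, against 31.9%. Il6st, Lifr and Stat3 rose and Lif, Jak2 and Socs3 fell in both lines, and Pim1 fell in the Sox2 line. Cell type markers moved over the same step. Of 10 primitive endoderm markers tested, 6 were called higher and 2 lower in each line, and of 10 epiblast markers 9 in the Oct4 and 6 in the Sox2 line were higher. Of 14 trophectoderm markers 4 were lower and 2 higher in the Oct4 line, and 8 were lower in the Sox2 line. The part of these shifts in the changes of the 9 genes was not tested.

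From early to late ICM, 3 of the 9 genes were called in Oct4 Ctrl embryos, against 15.6% of all genes, and 2 of 9 in Sox2 Ctrl embryos, against 2.9%. Il6st rose by 1.06 ± 0.33 (log2 fold change ± SE, adjusted p = 0.00825) in the Oct4 line and by 1.15 ± 0.32 (adjusted p = 0.0148) in the Sox2 line. Socs3, the feedback inhibitor, rose by 2.20 ± 0.48 (adjusted p = 0.000139) and 2.48 ± 0.59 (adjusted p = 0.00424). Without 10 embryos that had more than 2 times their group's median of trophectoderm markers or lay nearest to another stage, the rise of Socs3 in the Sox2 line was 2.21 ± 0.70 and no longer called (adjusted p = 0.0545). Lifr rose by 1.85 ± 0.47 (adjusted p = 0.00121) in the Oct4 line and by an uncalled 1.01 ± 0.46 (adjusted p = 0.185) in the Sox2 line. Cell type markers moved over this step too. In the Oct4 line 4 of 10 epiblast, 4 of 10 primitive endoderm and 2 of 14 trophectoderm markers were called higher. In the same order 0, 2 and 1 were called lower. In the Sox2 line 0, 3 and 4 were called higher and none lower. The part of these shifts in the changes from early to late ICM was not tested. Over the 16 groups the mean of Il6st ran from 0.132 ± 0.373 CPM (SD, n = 8) in Oct4 KO morulae to 43.3 ± 12.4 CPM in Sox2 Ctrl late ICMs. That of Lifr ran from 0.305 ± 0.806 CPM (n = 7) in Oct4 MWT morulae to 85.8 ± 36.7 CPM in Oct4 Ctrl late ICMs. With the groups ordered by mean, the ranges of all 15 neighbouring pairs overlapped for each of the 9 genes, so the order is firm only between groups far apart in it.

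The sequences around the start sites of 3 genes are shown because Il6st, Lifr and Socs3 were the members called lower in at least 2 of the 4 ICM comparisons described further on. In mm10 the receptor genes are Lifr at chr15:7090614-7197489, Il6st at chr13:112464070-112510086 and Il6ra at chr3:89864059-89913196, and the ligand is Lif at chr11:4257557-4272514. The signalling genes are Jak1 at chr4:101152367-101265282, Jak2 at chr19:29251828-29313080 and Stat3 at chr11:100885098-100939540, and the targets are Socs3 at chr11:117966079-117970047 and Pim1 at chr17:29490753-29496112, all 9 being protein coding. RefSeq (GRCm38.p6) gave 11 promoters for the 9 genes, each from 250 bases before to 50 bases after a start site. Capitals mark a match on either strand to the STAT sequence TTCNNNGAA or to the SOX sequence CATTGT.
Il6st, chr13:112463820-112464119, plus strand: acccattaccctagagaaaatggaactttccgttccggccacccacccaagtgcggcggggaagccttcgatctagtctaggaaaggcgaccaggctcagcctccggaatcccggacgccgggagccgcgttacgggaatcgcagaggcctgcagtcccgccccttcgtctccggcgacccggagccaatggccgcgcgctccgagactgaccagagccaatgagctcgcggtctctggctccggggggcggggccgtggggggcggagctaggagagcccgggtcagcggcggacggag
Lifr, the downstream of 2 start sites, chr15:7140292-7140591, plus strand: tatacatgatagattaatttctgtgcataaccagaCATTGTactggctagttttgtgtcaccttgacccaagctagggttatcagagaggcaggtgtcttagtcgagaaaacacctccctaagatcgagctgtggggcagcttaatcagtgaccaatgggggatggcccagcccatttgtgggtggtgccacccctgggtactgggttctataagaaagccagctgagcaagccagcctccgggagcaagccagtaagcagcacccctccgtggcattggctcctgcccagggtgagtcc
Socs3, chr11:117969317-117969616, minus strand: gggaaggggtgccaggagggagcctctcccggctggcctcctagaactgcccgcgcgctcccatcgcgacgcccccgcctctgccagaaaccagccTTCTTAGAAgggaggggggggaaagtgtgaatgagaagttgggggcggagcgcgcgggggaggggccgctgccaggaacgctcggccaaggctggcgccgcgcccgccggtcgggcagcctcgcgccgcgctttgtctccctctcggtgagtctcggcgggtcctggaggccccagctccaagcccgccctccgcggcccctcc
The match in Socs3, TTCTTAGAA, begins 154 bases before the start site and was the only STAT match in the 11 windows, against 8.3% of all 32851 promoters that hold one. None held the stricter TTCCNGGAA, which is contained in the first motif and was found in 1.15% of all promoters. The last 30 bases of the Socs3 window, past its start site, were not found in an annotated transcript, so that start site lacks this support. Lifr was the only one of the 9 genes with a SOX match, 215 bases before the downstream of its 2 start sites. It was the only such match in the 11 windows, beside 12.6% of all promoters that hold one. The upstream Lifr window had no SOX match. Its last 30 bases were found in an annotated transcript, whereas those of the downstream window were not. None of the 9 genes had the octamer ATGCAAAT (1.74%). These matches describe the letters of short windows and say nothing of sites farther away.

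Il6st was lower in Oct4 KO than in Ctrl ICMs at both stages, and a single UMI of it was found over the 8 early KO ICMs. In early ICMs the lowest, median and highest embryo had 5.75, 16.4 and 44.8 CPM in Ctrl, whereas 7 of the 8 KO embryos had no UMI and the eighth had 1 UMI (1.21 CPM). The groups did not overlap. The KO embryos held 0.753% of the Ctrl level (95% exact Poisson interval 0.0189% to 4.27%), and the fitted log2 fold change, which rests on that UMI, was -6.0 ± 0.65 (adjusted p = 2.76e-12). In late ICMs the lowest, median and highest embryo had 21.4, 38.8 and 59.0 CPM in Ctrl and 0, 0.643 and 10.1 CPM in KO, again without overlap, and 4 KO embryos had no UMI. The KO embryos held 14 UMIs in all, 6.26% of the Ctrl level (3.36% to 10.8%), and the difference was -3.88 ± 0.44 (adjusted p = 6.43e-12). Embryo 2-2 held 8 of these UMIs, and without it the difference was -4.80 ± 0.50 (adjusted p = 2.04e-13).

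Sox2 KO ICMs had less Il6st than Ctrl ICMs at both stages too, 13.7% of the Ctrl level (8.03% to 22.3%) in early and 11.4% (7.66% to 16.5%) in late ICMs. In early ICMs the lowest, median and highest embryo had 8.30, 16.3 and 32.1 CPM in Ctrl and 0, 2.20 and 5.83 CPM in KO. In late ICMs they had 23.3, 40.6 and 60.3 CPM in Ctrl and 0, 5.02 and 9.80 CPM in KO. Neither pair of groups overlapped, and 7 of 8 KO embryos had at least 1 UMI at either stage. The differences were -2.75 ± 0.43 (adjusted p = 1.95e-06) and -3.01 ± 0.38 (adjusted p = 1.77e-09). Il6st was called lower in all 4 ICM comparisons under every alternative tried, 27, 26, 27 and 28 of them in the order given. In morulae the KO and Ctrl embryos held 1 and 2 UMIs in the Oct4 line, too few for a fold, and 12 and 7 UMIs in the Sox2 line.

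Lifr was called lower in 3 of the 4 ICM comparisons, all but Oct4 early ICMs. In Oct4 early ICMs the Ctrl embryos spread from 2.55 over a median of 21 to 55.8 CPM and the KO embryos from 1.06 over 11.3 to 36.4 CPM. These ranges overlapped almost fully, and the difference of -0.69 ± 0.52 was not called (adjusted p = 0.384, 95% interval -1.71 to 0.33). In Oct4 late ICMs the lowest, median and highest embryo had 36.9, 81.1 and 142 CPM in Ctrl and 0, 7.01 and 42.1 CPM in KO. A single KO embryo reached the Ctrl range, and the difference was -2.94 ± 0.53 (adjusted p = 5.11e-06). Without that embryo, 1-2, it was -3.71 ± 0.58 (adjusted p = 1.65e-07). In Sox2 early ICMs the values were 1.04, 13.6 and 78.8 CPM in Ctrl and 0, 1.19 and 7.77 CPM in KO. All 8 KO embryos were below the Ctrl median, although the lowest Ctrl embryo had only 1.04 CPM, and the difference was -3.42 ± 0.67 (adjusted p = 0.000164). In Sox2 late ICMs the values were 27.1, 60.5 and 89.9 CPM in Ctrl and 0, 3.09 and 45.3 CPM in KO. Again 1 KO embryo lay within the Ctrl range, and the difference was -2.72 ± 0.54 (adjusted p = 9.88e-05). Without that embryo, 2-6, it was -4.15 ± 0.62 (adjusted p = 2.32e-07). Among the 8 embryos that share replicate numbers it was called with that number as a block but not without, at -2.18 ± 0.70 (adjusted p = 0.121).

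**Figure D2:**
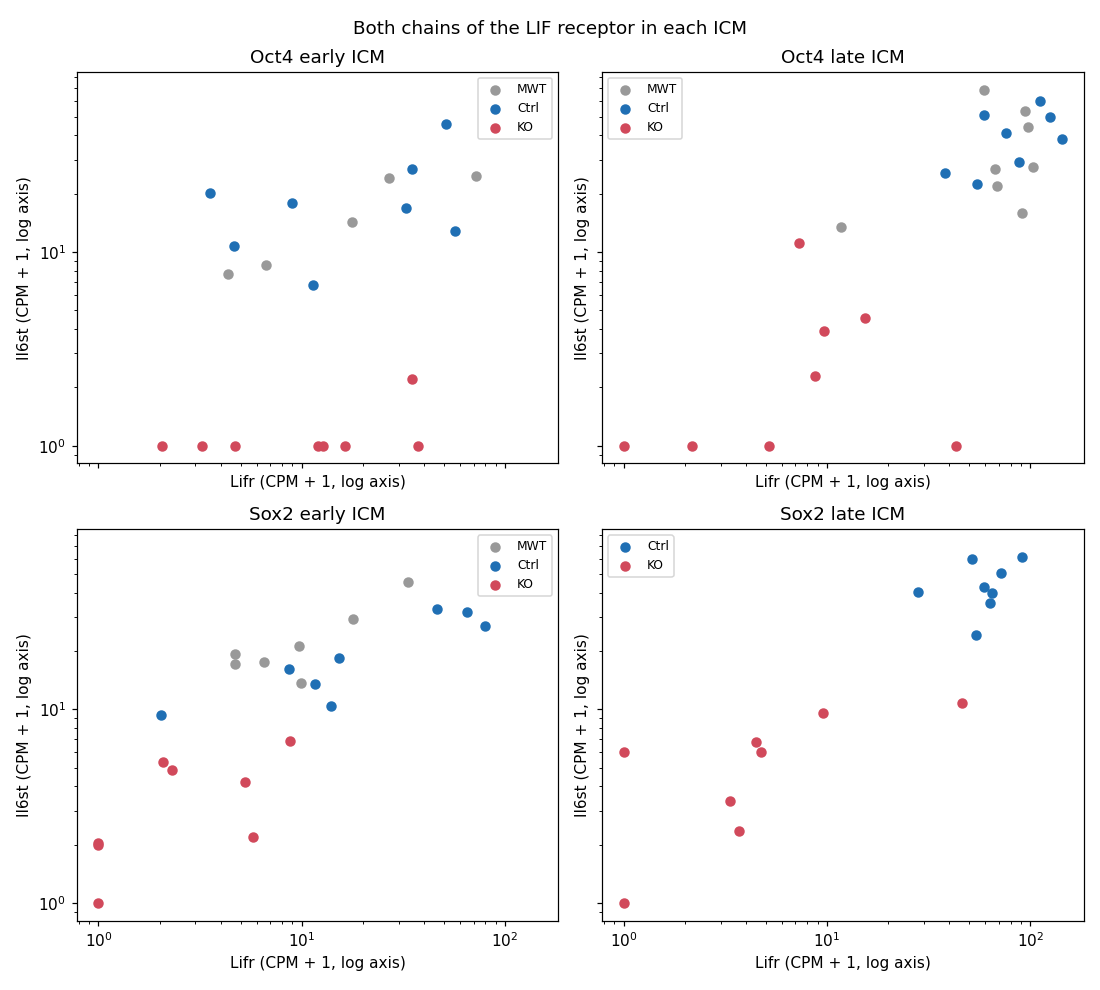
Il6st against Lifr in each ICM (CPM + 1, log axes; grey MWT, blue Ctrl, red KO), 1 panel a line and stage. Oct4 KO early ICMs spread over the Lifr range of the Ctrl embryos with Il6st at 0 to 1.21 CPM, whereas Sox2 KO early ICMs were low in both chains, with at most 7.77 CPM of Lifr.

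The difference between the lines was tested directly as the KO effect in the Oct4 line minus that in the Sox2 line. In early ICMs 3 of the 9 genes were called, against 5.52% of all genes. The effect on Lifr was weaker in the Oct4 line by 2.73 ± 0.87 on the log2 scale (adjusted p = 0.034), and the effect on Il6st was stronger by a fitted -3.26 ± 0.93 (adjusted p = 0.0156), a value that rests on a single UMI in the Oct4 KO group. The third was Pim1, described with the target genes. On counts thinned to equal depth none of the 3 was called. There the differences in Lifr and Pim1 were 2.40 ± 0.86 (adjusted p = 0.0916) and 1.42 ± 0.46 (adjusted p = 0.054), near those on all counts, whereas that in Il6st was smaller in size, -1.95 ± 1.01 (adjusted p = 0.299). On the rlog values Lifr and Il6st were not called, at 1.33 ± 0.55 (adjusted p = 0.12) and -0.43 ± 0.30 (adjusted p = 0.422). Lifr was also not called by DESeq2, at 2.84 ± 1.04 (adjusted p = 0.0546), or without the 10 embryos named above, at 2.41 ± 0.91 (adjusted p = 0.0866). In late ICMs none of the 9 genes was called, against 6.3% of all genes, and the differences were -0.22 ± 0.80 in Lifr and -0.87 ± 0.62 in Il6st (adjusted p = 0.448, 95% interval -2.09 to 0.35). By edgeR and by DESeq2, which called none either, 2 members had an unadjusted p under 0.05. These were Stat3, which missed the fold minimum at 0.75 ± 0.23 (edgeR adjusted p = 0.0235), and Lif at 1.80 ± 0.66 (adjusted p = 0.0704).

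Il6ra, the IL-6-binding chain that also pairs with gp130, was called in 1 of the 6 KO comparisons, in which it fell, Oct4 early ICMs. The lowest, median and highest embryo had 9.20, 19.1 and 30.9 CPM in Ctrl and 1.06, 4.87 and 16.5 CPM in KO. All 8 KO embryos were below the Ctrl median, and the difference was -1.54 ± 0.39 (adjusted p = 0.00162). Among the 4 embryos that share replicate numbers it was not called, at -1.98 ± 0.86 (adjusted p = 0.171) with the replicate number as a block and -1.94 ± 0.80 (adjusted p = 0.139) without. It was -0.78 ± 0.42 (adjusted p = 0.154) in Oct4 late ICMs and -0.29 ± 0.34 and 0.15 ± 0.34 in the Sox2 ICMs, and the difference between the lines in early ICMs, -1.25 ± 0.52, did not pass (adjusted p = 0.122). Among the 4 other receptor genes of the family in the table, Il11ra1 alone passed the filter on low counts and was called in none of the 4 ICM comparisons.

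The ligand rose in 1 of the 4 ICM comparisons. Lif had 1.37, 3.29 and 9.09 CPM in the lowest, median and highest Oct4 Ctrl late ICM and 3.58, 12.8 and 56.2 CPM in KO. All 8 KO embryos exceeded the Ctrl median, and the difference was 2.34 ± 0.45 (adjusted p = 1.71e-05). In the other ICM comparisons Lif was not called, with estimates between 0.34 and 0.54. Of all Ctrl and MWT comparisons of the 9 genes, Lif in Oct4 late ICMs had the lowest adjusted p, with 13.2 ± 7.12 CPM (SD, n = 8) in MWT against 4.31 ± 2.84 CPM (n = 8) in Ctrl, a Ctrl minus MWT difference of -1.56 ± 0.50 that was not called (adjusted p = 0.0922). The MWT median of 13.2 CPM was close to the KO median, and KO was not tested against MWT. Title and source name gave different stages for these MWT embryos, and embryo 20 of them lay nearest to a group of another stage. Primitive endoderm markers differed between these MWT and Ctrl embryos too, with 4 of 10 tested called higher in Ctrl and sums of 159 to 519 CPM in MWT against 312 to 1541 CPM in Ctrl. The part of these markers, or of a difference in stage, in the Lif values was not tested.

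Among the kinases and Stat3, Jak2 in Oct4 early ICMs was the only KO effect called. Jak1 ranged between group means of 27.9 ± 7.41 and 63.4 ± 15.2 CPM (n = 8 each), and its strongest KO effect was 0.72 ± 0.20 in Sox2 early ICMs (adjusted p = 0.0138), under the minimum of 1. Jak2 was low throughout, with group means from 2.91 to 11.3 CPM. It was called higher in Oct4 KO early ICMs at 1.21 ± 0.46 (adjusted p = 0.0487), where all 8 KO embryos were above the Ctrl median of 2.97 CPM. That call rests on the threshold, because it was lost on leaving out any of 10 of the 16 embryos (adjusted p up to 0.107), and among the 4 embryos that share replicate numbers. Under 27 alternatives in all it was called in 10, with estimates from 0.59 to 1.38.

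Stat3, the factor the kinases activate, and Jak1 had the lowest biological coefficients of variation of the 9 genes, 0.197 and 0.201. Relative to the trend over genes of like abundance, however, they stood at the 54.8th and 49.6th percentile of all genes. Stat3 rose from morula to early ICM by 1.6 ± 0.17 (adjusted p = 7.68e-14) in the Oct4 line and 1.57 ± 0.17 (adjusted p = 1.22e-13) in the Sox2 line, from 65.0 ± 20.3 to 210 ± 22.3 CPM and from 54.5 ± 18.5 to 170 ± 25 CPM (SD, n = 8 each). In Oct4 KO late ICMs it was 239 ± 46.5 CPM against 151 ± 33.1 CPM, a difference of 0.77 ± 0.16 (adjusted p = 8.49e-05) that passed the test but not the fold minimum. In the other 3 ICM comparisons the estimates lay between -0.12 and 0.06. The 3′ ends of Stat3 and Stat5a overlap by 72 bases on opposite strands (chr11:100885098-100885169), so reads from that stretch may have been counted for either gene.

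Socs3 was lower in KO late ICMs of both lines. In Oct4 late ICMs the lowest, median and highest embryo had 29.1, 71.9 and 191 CPM in Ctrl and 1.45, 18.1 and 48.9 CPM in KO. All 8 KO embryos were below the Ctrl median, and the difference was -2.04 ± 0.49 (adjusted p = 0.000499). In Sox2 late ICMs the values were 10.6, 30.4 and 67.4 CPM in Ctrl and 0, 7.20 and 12.1 CPM in KO. All 8 KO embryos were again below the Ctrl median, and the difference was -2.16 ± 0.59 (adjusted p = 0.00671), which was not called without the 10 embryos named above (-1.94 ± 0.68, adjusted p = 0.052), nor among the 8 embryos that share replicate numbers without a block (-1.83 ± 0.55, adjusted p = 0.0952). In Oct4 early ICMs the values were 2.55, 10.9 and 47.4 CPM in Ctrl and 0, 3.44 and 19.8 CPM in KO, and the difference of -1.62 ± 0.63 missed the threshold (adjusted p = 0.0527). It passed without any 1 of 6 of the 16 embryos, with the strongest estimate, -2.29 ± 0.71 (adjusted p = 0.0127), without KO embryo 10, and by DESeq2 (adjusted p = 0.0308). In Sox2 early ICMs Socs3 was already at 5.28 ± 4.17 CPM in Ctrl and 3.89 ± 5.35 CPM in KO (SD, n = 8 each), and the difference of -0.38 ± 0.80 was not called (-1.24 ± 0.92, adjusted p = 0.51, without KO embryo 11).

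Embryos of a group differed more in Socs3 and Lifr than in most genes of like abundance. Their biological coefficients of variation were 0.756 and 0.835, 2.99 and 2.88 times the trend, and both stood at the 99.4th percentile of all genes. In Oct4 MWT morulae, Socs3 was 245 and 247 CPM in embryos 3 and 5 and 14.2 to 39.5 CPM in the other 5.

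Pim1, a kinase gene induced by STAT3 in other cells, rose in Oct4 early ICMs. There the lowest, median and highest embryo had 28.8, 39.5 and 79.4 CPM in Ctrl and 56.2, 109 and 168 CPM in KO. All 8 KO embryos were above the Ctrl median, and the difference was 1.39 ± 0.24 (adjusted p = 5.04e-06). In the Sox2 early ICMs the groups held 17.3 ± 5.70 and 15.4 ± 6.74 CPM (SD, n = 8 each), and the effect differed between the lines by 1.48 ± 0.39 (adjusted p = 0.00759). The effect was also larger in Oct4 early ICMs than in Oct4 morulae by 1.43 ± 0.34 (adjusted p = 0.00456). By late ICM the Oct4 KO effect was 0.49 ± 0.29 and not called. An antisense gene, Gm26885, overlaps Pim1 and held 241 UMIs against 4545 over all embryos.

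**Figure D3:**
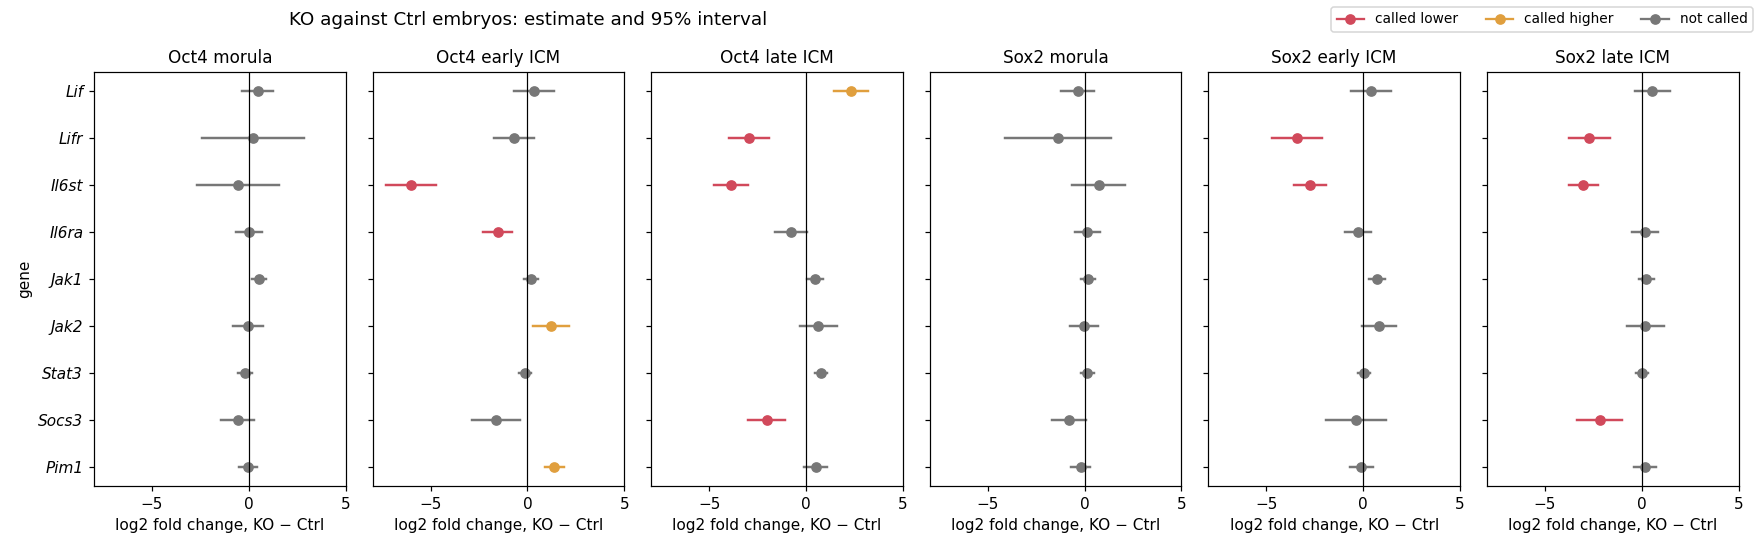
Log2 fold change of KO against Ctrl for the 9 genes in the 6 line and stage comparisons, with the 95% interval as a bar (8 against 8 embryos each; red called lower, yellow called higher, grey not called). Il6st is called lower in all 4 ICM panels and Lifr in 3 of them, and neither morula panel holds a call.

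Counted over the set, 4 of the 9 genes were called in Oct4 early ICMs, against 10.9% of all 14053 genes, and 4 of 9 in Oct4 late ICMs, against 18.1%. In the Sox2 line 2 of 9 were called in early ICMs, against 3.27%, and 3 of 9 in late ICMs, against 6.95%. The median log2 fold changes of the 9 genes in these comparisons were -0.124, 0.461, -0.0937 and 0.152, beside medians over all genes of 0.0144, -0.0056, -0.0107 and 0.00125. In morulae none of the 9 genes was called by edgeR or DESeq2 in either line, against 0.804% of all genes in the Oct4 and 0.00712% in the Sox2 line, and Jak1 in the Oct4 line was the only 1 with an unadjusted p under 0.05 by either tool (0 in the Sox2 line). Among the 6 Oct4 morulae that share replicate numbers, however, Socs3 was called lower in KO, at -1.27 ± 0.27 (adjusted p = 0.000375) with that number as a block and -1.40 ± 0.34 (adjusted p = 0.0274) without. Comparisons of KO effects between stages gave 1 call between Oct4 early ICM and morula (Pim1, against 3.29% of all genes) and 1 in the Sox2 line (Il6st, -3.48 ± 0.87, adjusted p = 0.0214, against 0.882%). Between late and early ICM none of the 9 was called in the Oct4 line, against 3.11% of all genes, or in the Sox2 line, against 0.0427%. By edgeR and DESeq2 alike 5 members of the Oct4 line (Lif, Lifr, Il6st, Stat3 and Pim1) had an unadjusted p under 0.05 there, and in the Sox2 line 0 by edgeR and 1 by DESeq2. For Il6st the Oct4 morulae hold too few UMIs for a comparison of effects, and the Pim1 call was lost on thinned counts at a like size, 1.29 ± 0.39 (adjusted p = 0.0547).

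Ctrl and MWT embryos, which differ in the mother's gene, were compared in 4 settings, and none of the 9 genes was called in any. In the Oct4 early ICMs a difference in culture cannot be told apart from one in the mother's gene, since the labels name the inhibitor for Ctrl alone. The shares of all 13923 genes called were 0.0646% in Oct4 morulae, 0.373% in Oct4 early ICMs, 0.797% in Oct4 late ICMs and 2.58% in Sox2 early ICMs. The members with an unadjusted p under 0.05 numbered 3, 1, 1 and 1 in this order by edgeR and 3, 1, 2 and 1 by DESeq2, which called none. Il6st had 33.1 ± 19.6 CPM (SD, n = 8) in MWT and 38.7 ± 13.4 CPM (n = 8) in Ctrl Oct4 late ICMs, a difference of 0.29 ± 0.33. In Oct4 morulae it had 10 UMIs over 7 MWT and 2 UMIs over 8 Ctrl embryos, a difference of -2.06 ± 0.91 (edgeR unadjusted p = 0.0249, adjusted p = 0.607).

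Around these genes, 49 others of the pathway were examined in 5 lists, of which 2 were absent from the table, 8 failed the filter on low counts and 39 were tested. In the order Oct4 early, Oct4 late, Sox2 early and Sox2 late ICM, 9, 11, 6 and 8 of the 39 were called, beside the shares of all genes given above. Of the other cytokines of the family, 4 of 9 were tested. Il11, an interleukin that signals through gp130, rose by 1.37 ± 0.52 in Oct4 early ICMs (adjusted p = 0.0458). Of the other kinases and STAT factors, 7 of 8 were tested. Jak3, the kinase of the common gamma chain, fell in the Oct4 ICMs (log2 fold changes of -2.28 ± 0.44 and -2.14 ± 0.41) and in Sox2 late ICMs (-1.45 ± 0.40). Stat5a rose by 1.6 ± 0.36 in Oct4 and 1.22 ± 0.29 in Sox2 late ICMs.

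All 15 other inhibitors were tested, and Socs2, a relative of Socs3 that acts on growth hormone signalling, was the only one called in all 4 ICM comparisons. It fell, with log2 fold changes of -2.22 ± 0.29, -3.51 ± 0.33, -2.22 ± 0.29 and -2.58 ± 0.28 and adjusted p of at most 2.1e-08. Socs1, which blocks the kinases directly, rose in the Sox2 line by 1.39 ± 0.35 and 1.58 ± 0.34 and had an estimate of 0.03 ± 0.48 in Oct4 early ICMs. Cish rose by 1.46 ± 0.33 in Sox2 early ICMs. Pias2 fell in the Oct4 ICMs (-1.49 ± 0.19 and -1.54 ± 0.19), and Socs6 fell in Oct4 late ICMs (-1.52 ± 0.20).

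Of 12 other genes reported as STAT3 targets, Bcl3, Junb and Ier3 were called in all 4 ICM comparisons, but not in 1 direction. Bcl3, a nuclear NF-kappa-B cofactor, fell (-3.34 ± 0.51, -3.86 ± 0.40, -3.02 ± 0.45 and -3.43 ± 0.39). Junb, an AP-1 subunit, fell too (-2.08 ± 0.47, -1.65 ± 0.34, -1.92 ± 0.39 and -2.28 ± 0.35). Ier3, an immediate early gene, rose by 2.06 ± 0.67, 2.62 ± 0.70, 2.00 ± 0.62 and 2.10 ± 0.65, with adjusted p between 0.00192 and 0.0304. Klf4, a pluripotency factor, fell in the Oct4 ICMs (-1.26 ± 0.24 and -2.6 ± 0.26), and its estimates were 0.46 ± 0.24 and -0.80 ± 0.24 in the Sox2 ICMs. Tfcp2l1, which can replace LIF in stem cell self-renewal, fell in Oct4 early ICMs (-1.04 ± 0.14) and passed the test but not the fold minimum in late ICMs (-0.70 ± 0.14). Bcl6 fell (-2.5 ± 0.83) and Klf5 rose (1.0 ± 0.16) in Oct4 late ICMs, and Myc fell in Sox2 late ICMs (-1.42 ± 0.45).

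**Figure D4:**
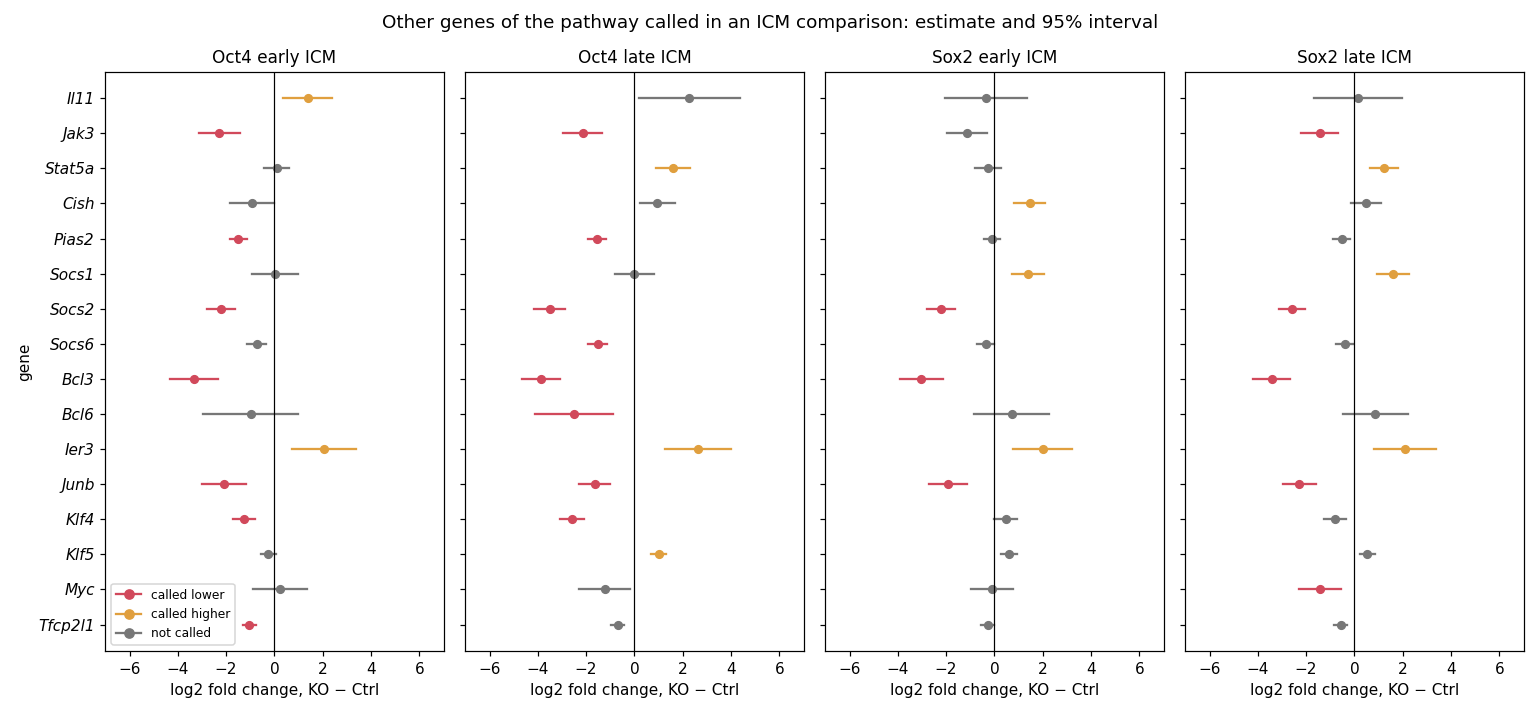
Log2 fold change of KO against Ctrl for the 16 other pathway genes called in at least 1 ICM comparison, with the 95% interval as a bar (8 against 8 embryos each; red called lower, yellow called higher, grey not called). Socs2, Bcl3 and Junb are called lower and Ier3 higher in all 4 panels.

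The genes whose mean log2(CPM + 1) over the 16 groups was most like that of each gene are given as a description, since groups of a line share stages and genotypes. Among 7918 genes with at least 20 CPM in their highest group, Il6st was most like Slc1a4 (Pearson r = 0.979, n = 16 groups), Fam25c (0.975) and Upp1 (0.973). Lifr was most like Sulf2 (0.961), Asns (0.957) and Rpap1 (0.940), and Stat3 like Ppib (0.978), Cbr4 (0.970) and Mdh1 (0.969). Socs3 was most like Arf2 (0.866), Mpzl2 (0.862) and Chka (0.853), Pim1 like Ccdc77 (0.941), Crxos (0.907) and 2810004N23Rik (0.902), and Il6ra like Olfr506 (0.898), Bcl2l14 (0.887) and Ccnyl1 (0.879). The likest genes to Jak2 were Zfp932 (0.930), Stag2 (0.919) and Stim1 (0.911), to Jak1 Clcn5 (0.862), H3f3b (0.823) and Cdkn1a (0.823), and to Lif Bad (0.80), Cldn7 (0.798) and Efnb1 (0.781).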

How the data were processed

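RNA was measured as UMI counts per gene in 123 single embryos or ICMs. The authors made the deposited counts from 3′-enriched reads with UMI-tools, Cutadapt, TopHat2 (mm10, GENCODE annotation), featureCounts and TRUmiCount, and the deposited rlog values (log2 scale) with DESeq2. Tool versions and the use of strand in counting are not given in the sources used here. Total UMIs were 525755 to 1344035 per embryo, and intervals on UMIs cover counting error only.

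Groups came from the labels. Counts were tested with edgeR 4.0.16 (R 4.3.3; TMM, quasi-likelihood, Benjamini-Hochberg adjustment over all genes) on genes with a UMI in a share of 0.5 or more of any stage's embryos, 14053 genes over the 96 Ctrl and KO embryos and 13923 over all 123 for MWT. A call needed an adjusted p under 0.05 and a log2 fold change of at least 1 in size. SEs are the log2 fold change divided by the square root of F. The labels do not tie embryos to mothers or litters, so p-values measure the spread between embryos. The numbers of Ctrl and KO late ICMs begin with 1 or 2, a set whose meaning the labels do not give, and which was tried as a block. CPM are UMIs scaled to a common total per embryo. All 9 members, pathway genes called in an ICM KO comparison, and the 3 genes most like each member are named. The members and lists were chosen with earlier results of these data known. A gene of the cytokine list is not reported here and is left out of the list's counts. The fit was tested on simulated data. Alternatives were DESeq2 1.42.0, limma 3.58.1 on rlog values, other normalizations and filters, thinning, fits to the groups compared alone, blocks, and leaving out embryos. No pair of embryos of a group agreed within sampling noise.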

Additional observations from a re-analysis of the deposited data

Results flagged for a closer look

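In 10 of the 121 sets of a gene and a group with enough UMIs to test, 1 embryo stood apart from the others of its group, where chance gives about 1 in 20. Lifr was 42.1 CPM in embryo 1-2 of the Oct4 KO late ICMs (next 14.3) and 45.3 CPM in embryo 2-6 of the Sox2 KO late ICMs (next 8.56). Socs3 was 96.7 CPM in embryo 12 of the Oct4 KO morulae (next 49.6) and 16.1 CPM in embryo 11 of the Sox2 KO early ICMs (next 6.45), an embryo that also had 2129 CPM of summed trophectoderm markers against a group median of 841. Pim1 was 79.4 CPM in embryo 1 of the Oct4 Ctrl early ICMs (next 51.0), 41.4 CPM in embryo 2-6 of the Sox2 Ctrl late ICMs (next 23.0) and 43.4 CPM in embryo 2-3 of the Sox2 KO late ICMs (next 21.6). Il6ra was 29.1 CPM in embryo 11 of the Oct4 Ctrl morulae (next 17.3), Jak2 19 CPM in embryo 6 of the Oct4 KO morulae (next 9.49), and Stat3 25.8 CPM, the lowest, in embryo 3 of the Oct4 MWT morulae (next 47.5).

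The KO effect differed between groups by edgeR's test of the difference in 5 cases. Between early ICM and morula it differed for Pim1 in the Oct4 line by 1.43 and for Il6st in the Sox2 line by -3.48 on the log2 scale. Between the Oct4 and Sox2 lines in early ICMs it differed for Lifr by 2.73, for Il6st by -3.26 and for Pim1 by 1.48. On thinned counts none of these differences between the lines was called, nor that of Pim1 between stages. Lifr was not called by DESeq2 either, and the Il6st difference between the lines rests on a single UMI.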

How the results depend on the processing

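Of 270 counts of called members under an alternative, 254 stayed within 1.5 times the main count, 7 fell, 9 rose and none reversed. Leaving out each embryo in turn gave 0 to 0 calls in Oct4 morulae, 3 to 5 in Oct4 early ICMs, 4 to 4 in Oct4 late ICMs, 2 to 2 in Sox2 early ICMs, 3 to 3 in Sox2 late ICMs and 0 to 0 for Ctrl against MWT in Oct4 early ICMs. With no fold minimum, Oct4 Ctrl late against early ICMs gave 5 calls (Pim1 and Stat3 added), and Stat3 was the 1 call in the KO effect between Oct4 late and early ICMs and the 1 call between the lines in late ICMs. The KO effect between Oct4 early ICM and morula gave 0 calls on thinned counts, 3 by DESeq2 (Il6ra and Il6st added) and 2 by limma on rlog values (Il6st added). Between the lines in early ICMs, thinned counts gave 0 and limma 1. The KO effect between Oct4 late and early ICMs gave 1 call, Lifr, by limma and 1, also Lifr, without the 10 embryos named in the report, a choice made after seeing the data, which left 1 call between Sox2 Ctrl late and early ICMs (Socs3 lost). The cause was not tested.

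Shared replicate numbers were not taken to pair the samples, since the correlations of 14 same-numbered pairs ran from -0.0933 to 0.269, with 8 above 0.1, and in no comparison with 3 or more pairs were all above it. Each was ranked among all 8 KO embryos of its group, so chance gives about 1 in 8 as the highest. Of the 14, 6 were highest with their own number, above that rate, and 1 of them is the only number shared in Oct4 late ICMs. Some likeness of same-numbered embryos is therefore seen, and what it stands for was not tested. The replicate block gave 1 call in Oct4 morulae (Socs3), 2 in Oct4 early ICMs (Il6ra and Jak2 lost), 2 in Sox2 early ICMs and 3 in Sox2 late ICMs. The same, fewer embryos without the block gave 1, 2, 2 and 1 (Lifr and Socs3 lost in the last). With the first digit of the late ICM numbers as a block, late ICMs alone gave 4 calls in the Oct4 and 3 in the Sox2 line, with none lost or gained. The replicate block was not run for Oct4 late ICMs and Sox2 morulae, which share fewer than 2 numbers. With 1 UMI near 1 CPM, folds of Il6st and Lifr in morulae and of Jak2 are imprecise.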

Other observations

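Relations between the receptor chains and Socs3 within single groups were computed after their values were seen, 15 in all, and none passed Benjamini-Hochberg adjustment by the exact permutation tests. The lowest adjusted p was 0.0594.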
